A study of Mus musculus with 8 samples.

Results

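The region described here is a gene-dense block of mouse chromosome 10, chr10:79519658-81435785 (mm10), which holds Bsg, Stk11, Sbno2, Gpx4, Dazap1 and Onecut3. Its members are all distinct intervals of 2 deposited H3K27ac peak lists that overlap it, 412 from DMSO-treated cells and 871 from EnPGC-1-treated cells, 1283 of 334945 in all. The block was chosen by measured values of these same lists, as a stretch with dense EnPGC-1 intervals. Its covered length and the excess of EnPGC-1 bases are therefore given as a description, with no test. Its edges are those of EnPGC-1 intervals. The first, 79519658 to 79519977, had a score of 4.75 and the last, 81435051 to 81435785, a score of 5.65. The nearest EnPGC-1 intervals outside lay 25907 bp to the left (score 2.68) and 14462 bp to the right (score 5.87), while the longest gap between EnPGC-1 intervals inside the block was 9829 bp.

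CD8+ T cells were purified from lymph node and spleen of C57BL/6 mice, stimulated with antibodies to CD3 and CD28, and kept for 48 h with EnPGC-1, which the labels class among PIPs, or with its vehicle DMSO. The 8 samples were 2 H3K27ac ChIP samples and 1 input for each treatment, and 2 IgG ChIP samples of the DMSO arm. Each treatment is represented by 1 list of H3K27ac intervals without replicate values, so the spread between replicates is unknown and the treatments were compared without a test. The labels do not say whether replicate samples came from separate animals or cultures. Interval scores were taken as −log10 q, from their values, and how deeply each sample was sequenced is unknown here. Numbers and widths of intervals depend on depth, which can differ between the lists. The labelled cell type was checked at gene ends: of 8 T cell markers 3 had a DMSO interval and 7 an EnPGC-1 interval and of 4 myeloid markers that lie outside the block 3 and 3. Elane and Prtn3, which belong to the myeloid list too, are genes of the block and were left out of that count. Among B cell genes, Cd79a and Cd79b had an interval in both lists and Pax5 in the EnPGC-1 list, so markers of other cell types were marked as well. In the DMSO list Cd3d, Cd3g, Cd8a, Lck and Thy1 had none. In the EnPGC-1 list Cd3d had none. Among all protein-coding genes, 39.4% carried a gene-end interval from both treatments, 33.4% from EnPGC-1 only and 2.19% from DMSO only. Beside shares of this size, counts over so few markers cannot decide which cell type was present. What these markers contribute to the intervals of the block was not tested.

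Acetylation of lysine 27 on histone H3 is laid down by acetyltransferases at active promoters and enhancers, usually on the nucleosomes that flank a transcription start. In gene-dense regions, promoters, gene bodies and enhancers of neighbouring genes lie side by side, so 1 interval can belong to several genes. The block joins genes that many cells use, such as Stk11, which encodes the kinase LKB1 upstream of AMPK, and Gpx4, whose product reduces lipid peroxides, with genes better known from neurons or neutrophils.

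The 250 bases upstream of 6 transcription starts show how intervals of the lists lie at promoters of the block. They were taken from RefSeq (GRCm38.p6, the build of mm10) on the strand of the gene and are written 5′ to 3′. For genes with several listed starts the outermost was used. Stk11, Sbno2, Gpx4 and Dazap1 are among the genes that name the block, and Ndufs7 and Rps15 were added after their values were seen. Capitals mark bases inside an interval, of the DMSO list for Stk11 and Rps15 and of the EnPGC-1 list for the others. Stk11 is chr10:80115545-80115794 and Rps15, a ribosomal protein gene, chr10:80292181-80292430. Gpx4 is chr10:80046916-80047165, the complex I gene Ndufs7 chr10:80249199-80249448, and Dazap1, which encodes an RNA-binding protein, chr10:80264764-80265013, all on the plus strand. Sbno2, which encodes a transcriptional regulator, is chr10:80102703-80102952 on the minus strand. RefSeq windows for Bsg and Onecut3 were not used here.
Stk11: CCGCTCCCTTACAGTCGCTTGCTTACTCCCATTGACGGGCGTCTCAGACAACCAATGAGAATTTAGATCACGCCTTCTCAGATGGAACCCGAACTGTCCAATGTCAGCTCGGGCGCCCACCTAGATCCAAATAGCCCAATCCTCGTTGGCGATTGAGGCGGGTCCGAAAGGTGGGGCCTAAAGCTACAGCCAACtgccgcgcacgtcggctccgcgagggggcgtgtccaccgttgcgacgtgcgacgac
Rps15: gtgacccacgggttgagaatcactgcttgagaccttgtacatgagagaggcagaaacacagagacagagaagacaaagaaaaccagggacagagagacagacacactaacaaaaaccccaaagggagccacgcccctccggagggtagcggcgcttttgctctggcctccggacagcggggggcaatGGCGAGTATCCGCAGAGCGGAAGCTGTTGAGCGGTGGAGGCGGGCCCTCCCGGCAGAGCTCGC
Gpx4: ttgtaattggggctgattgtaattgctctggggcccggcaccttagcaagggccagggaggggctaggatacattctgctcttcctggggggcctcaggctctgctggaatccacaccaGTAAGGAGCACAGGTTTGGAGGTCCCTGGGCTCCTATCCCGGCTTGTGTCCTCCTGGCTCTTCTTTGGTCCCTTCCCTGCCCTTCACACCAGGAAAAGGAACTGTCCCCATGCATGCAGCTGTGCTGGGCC
Ndufs7: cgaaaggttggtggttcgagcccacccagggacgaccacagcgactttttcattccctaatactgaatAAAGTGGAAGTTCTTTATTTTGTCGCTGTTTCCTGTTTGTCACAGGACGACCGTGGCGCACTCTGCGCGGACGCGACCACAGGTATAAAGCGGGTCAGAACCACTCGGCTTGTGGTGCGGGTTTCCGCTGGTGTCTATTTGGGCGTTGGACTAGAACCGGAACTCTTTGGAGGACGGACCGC
Sbno2: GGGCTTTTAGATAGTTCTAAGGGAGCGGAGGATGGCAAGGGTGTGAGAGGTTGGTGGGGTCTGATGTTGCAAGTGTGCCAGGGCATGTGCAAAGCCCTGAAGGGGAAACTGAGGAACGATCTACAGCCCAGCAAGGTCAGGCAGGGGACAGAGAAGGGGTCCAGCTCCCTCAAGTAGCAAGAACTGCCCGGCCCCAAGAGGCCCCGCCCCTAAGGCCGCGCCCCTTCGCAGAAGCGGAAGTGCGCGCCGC
Dazap1: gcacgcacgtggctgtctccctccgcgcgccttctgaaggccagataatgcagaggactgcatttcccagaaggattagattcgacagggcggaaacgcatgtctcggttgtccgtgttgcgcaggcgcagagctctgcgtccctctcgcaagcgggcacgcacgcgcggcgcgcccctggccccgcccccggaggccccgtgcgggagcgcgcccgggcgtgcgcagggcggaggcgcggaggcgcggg

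The promoters differed in which list reached them. At Stk11 the DMSO list covered 194 of the 250 bases with an interval of score 2.58 that ended before the start, and the EnPGC-1 list covered 0, with its nearest interval 180 bp past the window (score 3.18). At Rps15 a DMSO interval covered 63 bases and the start itself, and the EnPGC-1 interval began 250 bp past the window. At Gpx4 and Ndufs7 the EnPGC-1 list covered 131 and 182 bases and the start, and the DMSO list covered 0. The Gpx4 interval scored 1.34, near the lowest score of its list. The other listed Gpx4 starts, at 80053565, 80053659 and 80054011, lay in neither list. At Sbno2 all 250 bases lay in an EnPGC-1 interval of score 1.31, the lowest score of that list, and in no DMSO interval. At Dazap1 neither list covered any base of the window, although its GC content was 71.6%, and the nearest intervals lay 1531 bp (DMSO) and 1509 bp (EnPGC-1) upstream of the window.

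A search of both strands for 8 short motifs gave few matches in these windows. Stk11 held 3 copies of CCAAT inside its DMSO-covered part, beginning at bases -199, -153 and -115 from the start, and Gpx4 held 1 at -245. GGGCGG, the SP/KLF box, occurred at 3 places in Dazap1 and at 1 in Sbno2. Dazap1 also held CACGTG, an E-box, at -245, and Ndufs7 held TATAAA at -99. Rps15 held no match to the 8 motifs. Over the 138 starts of the block, GGGCGG was present in 60.9% of the upstream windows, against 33.0% of all 32619 RefSeq windows of these chromosomes, and CCAAT in 34.1% against 34.0%. The NRF1 core GCGCATGC was present in 9.42% against 2.26%, the ETS site CCGGAAG in 13.0% against 6.96%, CACGTG in 10.1% against 6.06%, the cAMP response element TGACGTCA in 3.62% against 1.56% and TATAAA in 10.9% against 12.4%. TCAAGGTCA, the site of estrogen-related receptors, was present in 1 window of the block and in 0.389% of all windows. CGs are frequent in several of these motifs, and the windows of the block were richer in GC, with a median of 61.7% over 300 bases against 53.0% elsewhere. Windows whose start lay in an EnPGC-1 interval held GGGCGG in 43 of 71 cases and those whose start did not in 41 of 67.

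The EnPGC-1 list covered 919527 bases of the 1.92 Mb block, 48.0%, and the DMSO list covered 250519 bases, 13.1%. Over the span of all chromosomes they covered 6.28% and 1.57%, and over chromosome 10 outside the block 4.84% and 1.16%. The ratio of EnPGC-1 to DMSO bases was 3.67 in the block, 4.00 in the whole lists and 4.18 on the rest of chromosome 10. The block was thus dense in both lists, and the ratio between them was no higher inside it than outside. The ratio of interval numbers was 2.11 in the block and 3.11 in the whole lists. With the EnPGC-1 list cut to its highest-scoring intervals, as many as the DMSO list holds (scores of at least 4.21), 319 EnPGC-1 intervals remained in the block beside 412 DMSO intervals, and the ratio of covered bases fell to 1.87.

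Higher scores than any in the block were found elsewhere in both lists. The highest score in the block was 7.32 for DMSO intervals and 11.2 for EnPGC-1 intervals, and 204 DMSO and 523 EnPGC-1 intervals elsewhere scored above these. The median score was 2.16 in the DMSO list both in the block and elsewhere, and 3.69 in the block against 3.64 elsewhere in the EnPGC-1 list. Widths differed more than scores. EnPGC-1 intervals had a median width of 783 bp in the block and 499 bp elsewhere, and 376 of the 871 (43.2%) held more than 1 summit, against 20.7% elsewhere. DMSO intervals had a median of 492 bp in the block and 431 bp elsewhere. Of the 412, 27 (6.55%) held more than 1 summit, against 3.40% elsewhere. The EnPGC-1 list had 30 intervals of 3000 bp or more in the block and 1295 of 252552 elsewhere. The DMSO list had 0 in the block and 4 of 81110 elsewhere.

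**Figure D1:**
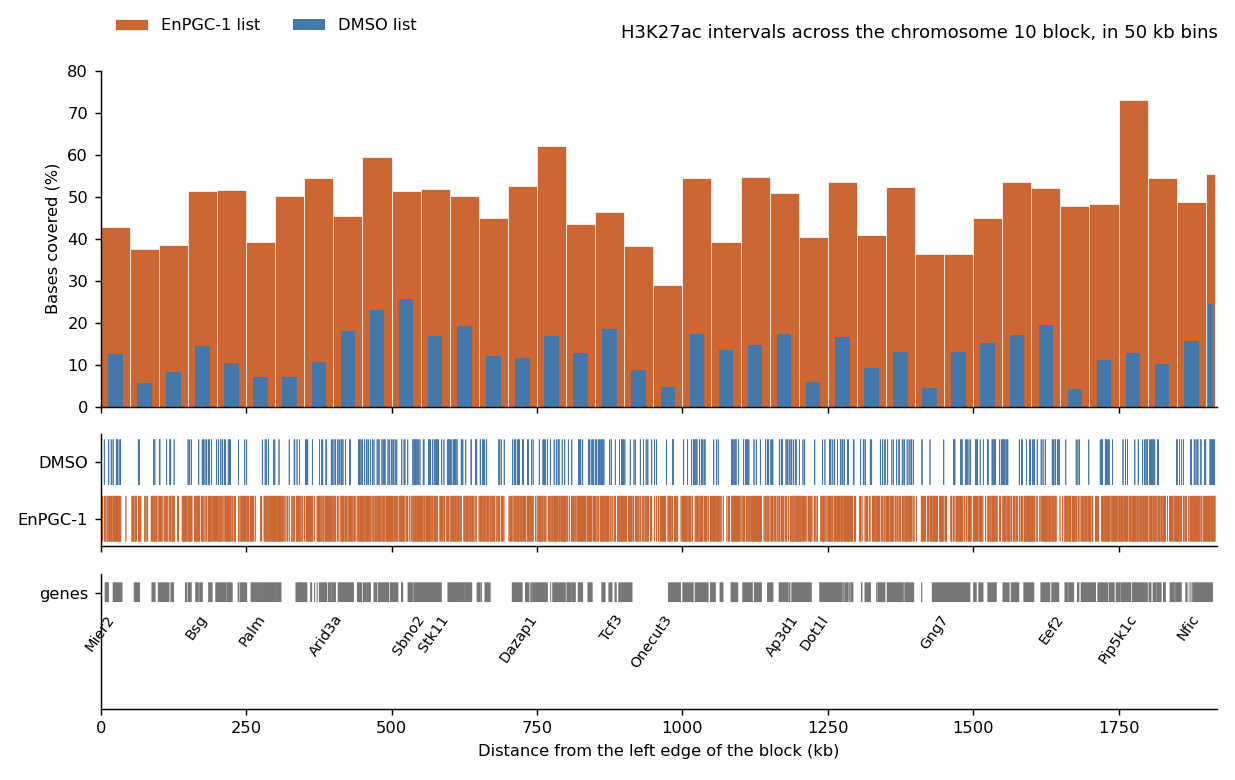
H3K27ac intervals across the block. Top, bases covered (%) in each 50 kb bin, the EnPGC-1 list in orange and the DMSO list in blue (the last bin is shorter); middle, each interval of the lists, with a thin edge so that narrow ones show; bottom, the spans of the 115 protein-coding genes with some names; x axis, distance from the left edge in kb. EnPGC-1 bars stood above DMSO bars in 39 of 39 bins and were lowest in the bin of Onecut3.

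DMSO intervals mostly lay inside or beside EnPGC-1 intervals. Of the 412 DMSO intervals, 356 shared at least 1 bp with the EnPGC-1 list (86.4%, exact Clopper-Pearson interval 82.7 to 89.6, which covers counting error only), and the share over the whole list was 73.7%. In the other direction 339 of 871 EnPGC-1 intervals met the DMSO list (38.9%, 35.7 to 42.2), and 23.1% did over the whole list. A block chosen for dense intervals gives more overlap by its density, so nothing is read from these excesses. Of the DMSO-covered bases 70.9% lay in EnPGC-1 intervals, which covered 48.0% of all bases of the block. Only 161 DMSO intervals (39.1%) lay wholly inside an EnPGC-1 interval. Of the EnPGC-1 intervals, 304 overlapped 1 DMSO interval by at least 1 bp and 35 overlapped 2 or 3. Neither list covered 48.2% of the block.

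Intervals found in both lists were wider than those found in 1 list. EnPGC-1 intervals with a DMSO partner had a median width of 1065 bp and a median score of 4.13, and the 532 without one had 639.5 bp and 3.31. A wide interval is more likely to meet another by its length alone. DMSO intervals with a partner had a median width of 518.5 bp and the 56 without one 381 bp, and their median scores were the same, 2.16. Among DMSO intervals of the block, 46 had the single score 1.36, and the 412 intervals held 95 distinct scores.

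**Figure D2:**
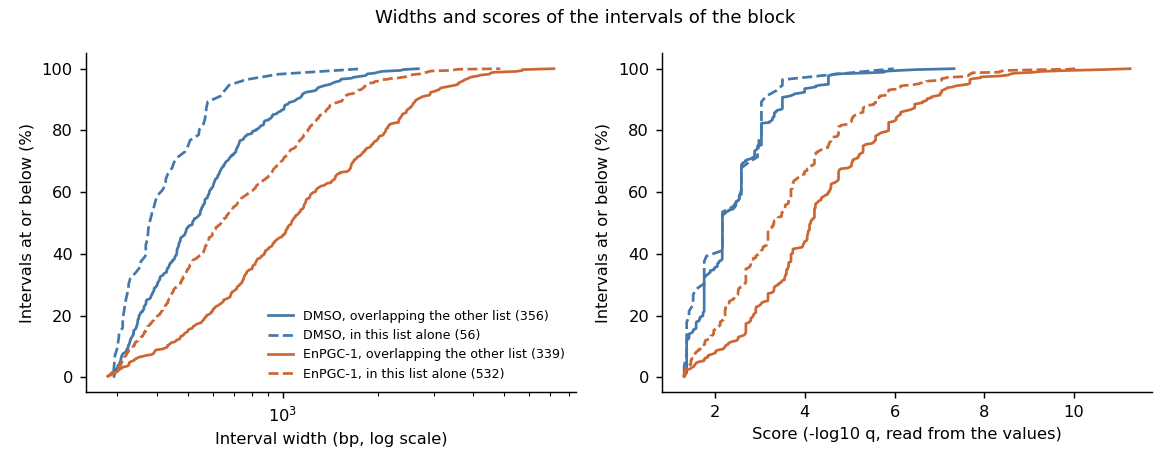
Widths (left, bp, log scale) and scores (right, −log10 q as read from the values) of the intervals of the block. Each line gives the percentage of intervals at or below a value, for intervals that overlap the other list (solid) and those in 1 list alone (dashed). EnPGC-1 intervals that overlap the DMSO list were the widest set, with a median of 1065 bp.

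The 3 highest-scoring and 3 widest intervals of each list lay mostly inside genes. In the EnPGC-1 list the highest score, 11.2, was at 81328290 to 81330869, over a start of Tbxa2r, the thromboxane receptor gene, where the DMSO list covered 75.2% of the same bases. Next came 81315002 to 81319529 in Pip5k1c, a gene of phosphoinositide synthesis (score 10.6), and 80496024 to 80497292 in Onecut3 (score 10.1), which overlapped no DMSO interval. The widest EnPGC-1 interval spanned 7181 bp of Fzr1, the gene of the cell cycle regulator CDH1, with 9 summits. The next spanned 5713 bp over a start of R3hdm4 and into Kiss1r, and 5697 bp in Apba3 and Tjp3. The DMSO list covered 14.6%, 9.29% and 15.3% of these 3. In the DMSO list the highest score, 7.32, was at 81124933 to 81125285 between Map2k2 and Zbtb7a, followed by 80793949 to 80794626 at the far end of Dot1l (6.50) and 80905828 to 80906580 over a start of Lmnb2, the lamin B2 gene (6.09). The widest DMSO intervals spanned 2680 bp in Apc2, 2406 bp over a start of Gng7 and 2349 bp in Scamp4.

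In 50 kb bins counted from the left edge, EnPGC-1 intervals covered more bases than DMSO intervals in 39 of 39 bins. Over the genome this held for 78.6% of bins. Since the block was chosen for dense EnPGC-1 intervals, nothing is read from that count. Over the 38 full bins the EnPGC-1 list covered a median of 49.3% (28.9% to 72.9%) with 17 to 28 intervals, and the DMSO list a median of 12.9% (4.09% to 25.7%) with 3 to 16 intervals. The lowest EnPGC-1 bin was above the highest DMSO bin. Elsewhere in the genome 0.546% of 52596 bins reached the median EnPGC-1 coverage of the block, and 1.33% reached its median DMSO coverage. The highest bin had 2.52 times the coverage of the lowest in the EnPGC-1 list and 6.27 times in the DMSO list.

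The lists had their highest coverage in different bins, though the bin of Grin3b to Arhgap45 was among the 3 fullest in both. EnPGC-1 coverage was highest from 81269658 to 81319657, with 72.9% over Apba3, Tjp3 and Pip5k1c, where the DMSO list covered 12.8%. It was next highest in the bin of Dazap1, Rps15 and Apc2 (62.1%) and in the bin of Grin3b, Tmem259, Cnn2, Abca7 and Arhgap45 (59.4%). Among full bins DMSO coverage was highest from 80019658 to 80069657, with 25.7% over Arhgap45, Polr2e, Gpx4 and the end of Sbno2, where the EnPGC-1 list covered 51.3%. The ratio was lowest there, at 2.00. The neighbouring bin, the same bin of Grin3b to Arhgap45, followed with 23.0%, and the bin of Map2k2, Zbtb7a and Pias4 with 19.4%. The short last bin, in Nfic, had 24.4%. Across the 38 full bins the coverage of the lists had a Pearson correlation of 0.52 (Spearman 0.52), a description of bins that share genes and base composition.

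The lowest bins were partly shared between the lists. The EnPGC-1 list covered 28.9% of the bin with Onecut3, 36.2% of the bin with Gadd45b and part of Gng7, and 36.4% of the next bin, with Gng7 and Diras1. The DMSO list covered 4.09% of the bin with Eef2, Dapk3, Nmrk2 and part of Atcay, 4.42% of the bin with Gadd45b and 4.66% of the bin with Onecut3. The bin of Eef2, the gene of translation elongation factor 2, had the highest ratio, with 2047 DMSO and 23902 EnPGC-1 bases, 11.7 times as many. Protein-coding genes filled 70.4% of the block. The EnPGC-1 list covered 54.6% of their bases and 32.2% of the bases between them, and the DMSO list 15.7% and 6.93%. The longest stretch between genes, 60929 bp from Tcf3 to Onecut3, was covered to 32.4% by the EnPGC-1 list and 6.88% by the DMSO list. From Lmnb2 to Gadd45b, 11845 bp, the EnPGC-1 list covered 5.87% and the DMSO list 0 bases. The longest gap between DMSO intervals ran 31216 bp, from Gipc3 through Hmg20b and Mfsd12 into Fzr1, and held 14 EnPGC-1 intervals that covered 49.6% of it.

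Transcription starts of the block were covered by EnPGC-1 intervals little more than its other bases, and by DMSO intervals somewhat more. RefSeq lists 138 starts of 107 genes there, coding or not. EnPGC-1 intervals lay over 71 of these starts (51.4%, 42.8 to 60.0), close to the 48.0% of all bases they covered, and DMSO intervals over 26 (18.8%, 12.7 to 26.4), beside 13.1% of all bases. In the rest of the genome the EnPGC-1 list covered 33.2% of 32481 starts and the DMSO list 11.1%, each several times its share of all bases. Of the 138 starts, 55 lay in an EnPGC-1 interval alone, 10 in a DMSO interval alone, 16 in both and 57 in neither. Over all starts the first 3 shares were 26.0%, 3.88% and 7.28%. Around starts of the block, EnPGC-1 coverage was 54.8% in the first 500 bp, 43.0% from 5 to 1 kb upstream and 53.3% from 1 to 5 kb downstream. In the rest of the genome these values were 33.5%, 11.2% and 13.3%. The lowest value around starts of the block, 31.3%, lay 1750 to 1500 bp upstream. For the DMSO list the values were 18.4%, 10.8% and 15.0% in the block, and 10.6%, 2.91% and 3.52% elsewhere.

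**Figure D3:**
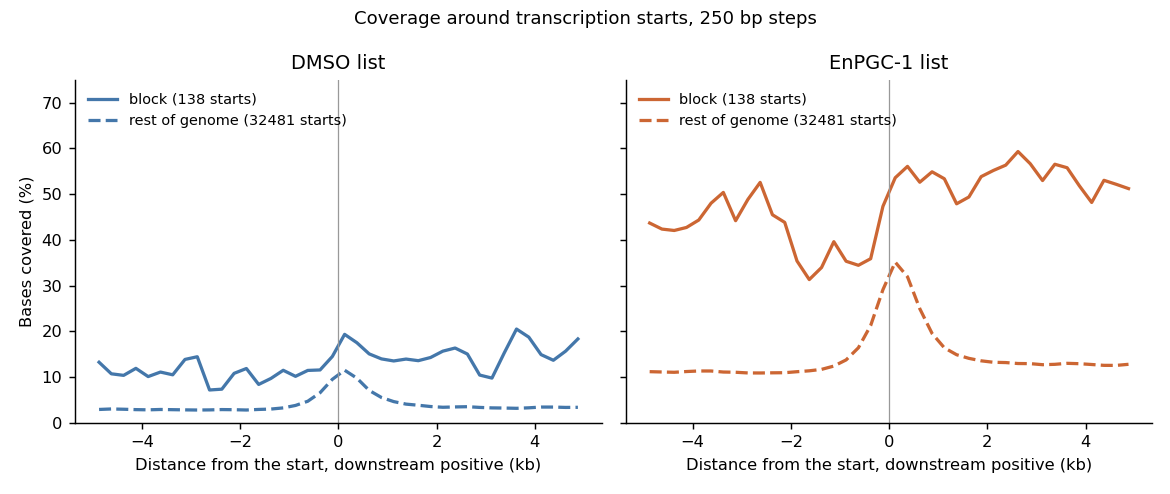
Bases covered (%) in 250 bp steps around transcription starts, by distance from the start in kb with downstream positive, for the DMSO list (left) and the EnPGC-1 list (right). Solid lines are the 138 starts of the block and dashed lines the 32481 starts elsewhere. The dashed lines form a peak at the start, whereas the solid lines are high on both sides.

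Starts of the block were also compared with starts of similar base composition elsewhere. Among starts whose 300-base window had 50% to 60% GC, the EnPGC-1 list covered 25 of 45 in the block (55.6%, 40.0 to 70.4) and 49.9% elsewhere. For 60% to 70% GC the values were 36 of 66 (54.5%, 41.8 to 66.9) and 55.8%. At 70% GC or more they were 9 of 21 (42.9%, 21.8 to 66.0) and 34.5%. The DMSO list covered 13 of 45 (28.9%, 16.4 to 44.3) against 16.4%, 11 of 66 (16.7%, 8.62 to 27.9) against 20.9%, and 2 of 21 (9.52%, 1.17 to 30.4) against 10.7%. At 50% to 60% GC the share elsewhere for the DMSO list lay at the lower limit of the exact interval of the block. The other shares elsewhere lay inside the exact intervals of the block, which are wide. Neighbouring starts can share the same H3K27ac interval, and the block was chosen for dense intervals. The exact intervals cover counting error only, and nothing is read from these differences. In the block only 6 starts had under 50% GC, against 12679 of 32481 elsewhere, where the EnPGC-1 list covered 7.97% of them.

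By gene, 96 of the 115 protein-coding genes had a listed start. A list was counted as reaching a gene if any listed start of the gene lay in one of its intervals. Starts were reached by both lists in 16 genes, by EnPGC-1 intervals alone in 35, by DMSO intervals alone in 6 and by neither in 39. Shares of these gene classes over the genome are not given here, so nothing is read from the counts. The 16 included Sbno2, Arhgap45, Csnk1g2, Lmnb2, Zbtb7a, Tbxa2r and Nfic, and also Apc2, where the lists reached different starts. The 35 included Gpx4 (1 of its 4 starts), Ndufs7, Polr2e, Elane, Prtn3, Eef2, Hmg20b and Fzr1. The 6 were Rps15, Atp5d, which encodes a subunit of ATP synthase, Adamtsl5, Atp8b3, Slc39a3 and Thop1. The 39 without either included Stk11, Dazap1, Tcf3, Dot1l, Polrmt, Ptbp1, Oaz1, Gadd45b and Gzmm, the gene of granzyme M in cytotoxic lymphocytes. With a window of 1 kb around either end of a gene, the EnPGC-1 list had an interval at all 115 genes. The DMSO list had one at 84 of these, so that 84 genes were marked in both lists (39.4% over all protein-coding genes), 31 by the EnPGC-1 list alone (33.4%), 0 by DMSO intervals alone (2.19%) and 0 by neither. At equal interval numbers this excess was gone, with 20 genes marked by EnPGC-1 intervals alone and 19 by DMSO intervals alone. Shares over all protein-coding genes in that setting are not given here.

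Gene by gene, coverage was measured over the gene with 5 kb on each side. These windows overlap, so neighbours share intervals. The EnPGC-1 list covered more bases at 115 of 115 genes, as it did at 84.8% of all protein-coding genes, and nothing is read from this count in a block chosen for its EnPGC-1 coverage. The medians were 50.4% (15.8% to 74.1%) for the EnPGC-1 list and 12.6% (0% to 40.4%) for the DMSO list. The median ratio was 4.00. With equal numbers of intervals 85 genes had more EnPGC-1 bases and 30 had more DMSO bases, and when only scores at or above the median of each list were kept, 112 and 3 genes did. Inside the gene itself, 77 genes were covered to over 50% by the EnPGC-1 list and 1, Gadd45b, by the DMSO list. The DMSO list covered no base inside 18 genes. Shares over all protein-coding genes are not given here for the counts inside genes or for those after filtering. Nothing is read from these counts.

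**Figure D4:**
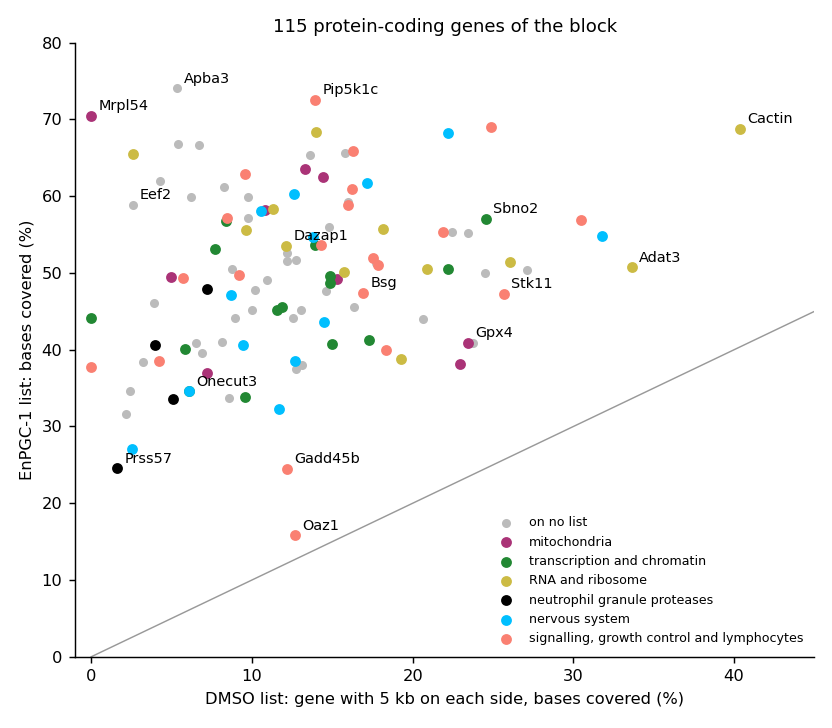
Bases covered (%) by the DMSO list (x) and the EnPGC-1 list (y) over each of the 115 protein-coding genes with 5 kb on each side. Colours give the gene lists (Onecut3, on 2 lists, has the colour of the nervous system list) and the line marks equal coverage. All 115 points lie above the line, with Oaz1 nearest to it.

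Of the genes that name the block, Sbno2 was the longest and carried the most intervals. Inside its 49117 bp lay 19 DMSO intervals, 17 of them overlapping an EnPGC-1 interval, and 25 EnPGC-1 intervals, 8 of them without a DMSO partner. DMSO scores there ran from 2.16 to 5.77 and EnPGC-1 scores from 1.31 to 7.29. The highest EnPGC-1 score was at 80105963 to 80106312, across the right end of the gene, where a DMSO interval of score 4.52 lay too. The widest EnPGC-1 interval of the gene, 4208 bp with 8 summits from 80092572 to 80096779, met 3 DMSO intervals, the one with the highest DMSO score (5.77, at 80095628 to 80096353) among them. The widest without a DMSO partner was 3588 bp, from 80070088 to 80073675. With 5 kb on each side the lists covered 14522 and 33739 bases, 24.6% and 57.1%, and the difference was -1233 bases once interval numbers were equal.

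At Stk11 the intervals of the lists were of similar number, 7 DMSO and 8 EnPGC-1 inside the 14913 bp gene, and 5 of each overlapped the other list. The DMSO list covered 31.5% of the gene and the EnPGC-1 list 46.6%. The strongest DMSO interval, 80128657 to 80130503 (score 3.50), lay at the far end of the gene and overlapped EnPGC-1 intervals of scores 4.32 and 4.24. With equal numbers of intervals the difference over the gene and its flanks was -34 bases. At Gpx4 there were 2 DMSO and 4 EnPGC-1 intervals, 1 of each shared with the neighbouring end of Sbno2. The EnPGC-1 intervals at 80049870 to 80051599 (score 4.93) and 80054295 to 80054917 (4.71) had no DMSO partner. Coverage with flanks was 4519 and 7885 bases, with a ratio of 1.74, and -228 bases with equal numbers.

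Dazap1, Onecut3 and Bsg had higher ratios of EnPGC-1 to DMSO bases with flanks, 4.42, 5.68 and 2.80, than Sbno2 (2.32), Stk11 (1.84) and Gpx4 (1.74). Dazap1 held 7 DMSO and 10 EnPGC-1 intervals, and coverage with flanks was 4489 and 19837 bases, a difference that stayed at 8654 with equal numbers. Its DMSO intervals were 308 to 730 bp wide and its EnPGC-1 intervals 361 to 3059 bp. Onecut3, a homeobox factor gene known from neurons, held 2 DMSO and 12 EnPGC-1 intervals, 11 of the latter without a DMSO partner. One of its DMSO intervals, 80503541 to 80504102 with a score of 5.98, was the highest-scoring DMSO interval of the block without an EnPGC-1 partner. Coverage with flanks was 1973 and 11198 bases. Bsg, which encodes the membrane protein basigin (CD147), held 4 intervals in each list, and coverage with flanks was 2982 and 8360 bases. Its EnPGC-1 interval from 79708469 to 79712048, 3580 bp wide, covered the right part of the gene, where the DMSO list had 1 interval of 803 bp (score 4.52).

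On the mitochondrial list 9 of 9 genes had more EnPGC-1 than DMSO bases, as did 115 of 115 in the block. The median difference was 5804 bases beside 7069 over all 115 genes, and such differences depend on gene length. By share of bases, median EnPGC-1 coverage was 49.5% beside 50.4% over all 115 genes, and the median ratio was 4.56 beside 4.00. Polrmt, the mitochondrial RNA polymerase gene, had 2950 DMSO and 12813 EnPGC-1 bases. Ndufs7, a subunit gene of complex I, had 2357 and 11246. Mrpl54, a mitochondrial ribosomal protein gene, had 0 and 8601 over a window that it shares in part with Apba3. Fam174c had the lowest difference of the list, with 2793 and 4637. Whether the product of each listed gene, Fam174c and Reep6 among them, lies in mitochondria was not checked here. Of the 9 genes 4, Polrmt, Ndufs7, Uqcr11 and Mrpl54, had a gene-end interval in the EnPGC-1 list alone, beside 31 of 115 in the block and 33.4% of all protein-coding genes. Atp5d had a DMSO interval of 1785 bp over a start, 80140867 to 80142651 (score 2.97), which was the widest DMSO interval of the block without an EnPGC-1 partner. With equal numbers of intervals 7 of the 9 had more EnPGC-1 bases, beside 85 of the 115 in the block. Shares over all protein-coding genes are not given here for that setting. Nothing is read from such counts for this list or those below.

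Genes of transcription and chromatin had a median difference of 9782 bases over 15 genes. Their median EnPGC-1 coverage was 45.5% and their median ratio 3.68, beside 50.4% and 4.00 over all 115 genes. With equal numbers of intervals the median difference was 471, beside 2179 over all 115 genes. More DMSO bases were then found at 6 of the 15, beside 30 of the 115. After Sbno2, the largest differences were at Dot1l, which encodes the methyltransferase of lysine 79 on histone H3 (7476 and 24985 bases), and Nfic, a nuclear factor I gene (10145 and 23103). At Nfic the difference was -320 with equal numbers, and at Dot1l it stayed at 5529. Mbd3, a gene of the NuRD complex, had 1627 and 5747 bases, and its difference turned to -1059 at or above the median scores and to -1627 with equal numbers. Tcf3, which encodes the lymphocyte E proteins E12 and E47, had 3980 and 15562 bases with -139 at equal numbers, and a gene-end interval among EnPGC-1 intervals alone. Genes of RNA processing and the ribosome had a median difference of 6320.5 over 12 genes, with median EnPGC-1 coverage of 54.6% and a median ratio of 3.13. With equal numbers the median difference was 2420.5, and 5 of the 12 had more DMSO bases, beside 30 of the 115. The difference was largest at Dazap1, then Rexo1 (7083 and 17117) and the splicing regulator gene Ptbp1 (2266 and 11682), and lowest at Adat3, a tRNA deaminase gene (4969 and 7496). At Adat3 the difference turned to -619 and -917, and at Rexo1 it was 882 and -2117. The snRNP gene Lsm7, 100% covered inside the gene by the EnPGC-1 list and 0% by the DMSO list, had the highest ratio of the block, 25.2, and lay in an interval of 4861 bp that also reached Sppl2b.

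The 4 neutrophil granule genes had median coverage of 4.52% (DMSO) and 37.1% (EnPGC-1), beside 12.6% and 50.4% over all genes of the block. EnPGC-1 coverage ran from 24.5% at Prss57 to 48.0% at Prtn3, and the windows of Prtn3, Elane and Cfd overlap. Prtn3, the proteinase 3 gene, had 973 and 6479 bases, Prss57 379 and 5697, the complement factor D gene Cfd 470 and 4792, and Elane, the neutrophil elastase gene, 603 and 3994. The DMSO list covered no base inside any of the 4. With equal numbers of intervals the differences were 1146 to 1759 bases. Genes known from the nervous system had a median difference of 9225 over 13 genes, with median EnPGC-1 coverage of 47.1% and a median ratio of 3.97. With equal numbers the median difference was 2546, and 2 of the 13 had more DMSO bases, beside 30 of the 115 in the block. The difference was largest at Gng7, a G protein subunit gene (7225 and 30976), Apc2 (5539 and 19952) and Palm (3252 and 17602), and lowest at Fgf22 (323 and 3447). With equal numbers these were 847, -212, 5306 and 543 bases.

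Signalling, growth control and lymphocyte genes had a median difference of 7710 over 21 genes, with median EnPGC-1 coverage of 51.9% and a median ratio of 3.32. With equal numbers the median difference was 2179, and 5 of the 21 had more DMSO bases, beside 30 of the 115 in the block. Pip5k1c had 5172 and 26943 bases, and its difference of 21771 stayed at 20034 with equal numbers, the highest of the 115 genes in that setting. Ap3d1, a gene of the AP-3 sorting complex, had 4179 and 22554 bases, with 11825 at equal numbers. Map2k2, the MEK2 gene, had 4676 and 17525, and -382 at equal numbers. The lowest difference of the block was at Oaz1, the ornithine decarboxylase antizyme gene, with 1603 and 1999 bases. Gadd45b, a stress response gene, had 1476 and 2971 bases, all of the former in 1 DMSO interval. Fstl3 and Hmg20b, like Mrpl54, had 0 DMSO bases, with 5805 and 6572 EnPGC-1 bases. Outside these lists and named after their values were seen, Gzmm had 2404 and 9084 bases, Eef2 409 and 9351, Apba3 872 and 12085, and Zbtb7a 3447 and 13971.

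The DMSO list marked some places that the EnPGC-1 list left out. The 56 DMSO intervals without a partner were 13.6% of DMSO intervals in the block, beside 26.4% in the rest of the genome. They were 292 to 1785 bp wide, with scores of 1.31 to 5.98. Of the 56, 4 lay over a start (7.14%, beside 2.48% of such intervals in the rest of the genome) and 8 within 1 kb of one (14.3% beside 4.19%). A further 34 lay elsewhere in a gene (60.7% beside 51.5%) and 10 outside genes (17.9% beside 41.9%). The block is dense in genes and was chosen for dense intervals, so nothing is read from these counts. The highest scores were in Onecut3 (5.98) and in Arid3a at 79930428 to 79931395 (4.68), followed by 3.50 at 80831459 to 80831875 between Oaz1 and Lingo3 and at 81025908 to 81026309 near a start between Diras1 and Slc39a3. Pias4, which encodes a SUMO ligase, held 3 of them, between 81164262 and 81168266. In 5 genes the DMSO list covered a larger share of the gene than the EnPGC-1 list, all named after their values were seen. They were Plekhj1 (27.2% and 13.8%), Izumo4 (19.9% and 10.5%), the cold-inducible RNA-binding protein gene Cirbp (20.9% and 15.3%), Smim24 (41.9% and 37.6%) and Gadd45b (56.2% and 56.0%). Of the 35 non-coding genes in the block, 25 overlapped an EnPGC-1 interval (46.3% of all non-coding genes) and 14 a DMSO interval (21.8%). Of the 17 long non-coding RNA genes, 17 overlapped an EnPGC-1 interval (69.8% of all) and 13 a DMSO interval (36.6%). Of the 10 microRNA genes, 6 overlapped an EnPGC-1 interval (34.0% of all) and 0 a DMSO interval (12.9%).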

How the data were processed

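ChIP with an antibody to H3K27ac, IgG ChIP and input DNA were sequenced. Per the submitters' processing notes, the build was mm10 and the tools were MACS2 2.2.2.20160309, Picard 0.118, ChIPseeker 11.16.1, Bowtie 1.1.2 and Trimmomatic 0.38. Parameters, the peak calling control and pooling of replicates were not given in the sources used here. The authors deposited 1 peak list per treatment with a score, read from its values as the −log10 of a q-value (lowest 1.31 in both lists, where −log10 of 0.05 is 1.30). IgG and input samples were not analysed here.

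Entries that repeat 1 interval were combined, keeping the highest score (84538 to 81522 in the DMSO list, 329623 to 253423 in the EnPGC-1 list). Covered bases, overlaps of at least 1 bp and exact 95% intervals were computed in Python 3.11.15 with pandas 2.3.3 and scipy 1.17.1. The covered bases and overlaps were tested on simulated data, with 0 errors in 200 lists. Genes came from RefSeq GRCm38.p6, starts and strands from its promoter table, which held 96 of the 115 genes. Start-site results were added after the files had been seen. The block, gene lists and rules were chosen with earlier results of these data known. Values were given for Bsg, Stk11, Sbno2, Gpx4, Dazap1 and Onecut3, and in each gene list for the 3 largest differences and the lowest 1. The 3 highest-scoring and 3 widest intervals and the 3 fullest and emptiest bins of each list were named. 1 marker gene is not reported here. Other genes and intervals named were chosen after their values were seen. The alternatives tried comprised a score filter, equal numbers, a width filter, merging, deposited entries, other overlap rules, windows and bins.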

Additional observations from a re-analysis of the deposited data

How the results depend on the processing

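No alternative reversed the excess of EnPGC-1 bases in the block as a whole. The block was chosen for dense EnPGC-1 intervals in these same lists, so the excess is built in and its persistence is no support. Shares of bins and genes over the genome are not given here for these settings, and nothing is read from their counts. With scores at or above the median of each list, the numbers of intervals were 241 and 448, the ratio of covered bases 3.70, the share of DMSO intervals with a partner 59.8%, and the genes with a gene-end interval in 1 list 50 (EnPGC-1) and 6 (DMSO). With equal numbers, 319 EnPGC-1 intervals remained, the ratio was 1.87, the share 44.9%, the genes 20 and 19, and genes with a start in the EnPGC-1 list alone 17 in place of 35 (a value added after the data were seen). In that setting 36 of 39 bins had more EnPGC-1 bases. The exceptions were the bins of Mex3d to Tcf3 (9207 DMSO and 6573 EnPGC-1 bases), of Atp8b3 to Klf16 (8664 and 7246) and of Gng7 and Diras1 (6493 and 4939). That setting drops EnPGC-1 intervals and no DMSO interval. Without intervals under 500 bp, 199 DMSO intervals remained, the ratio was 4.88 and the genes were 48 and 2. Counting deposited entries gave 1573 EnPGC-1 entries, and merging within 1000 bp gave 336 EnPGC-1 intervals beside 314 DMSO intervals. Requiring 50% of the DMSO interval to be overlapped gave 71.8%. Bins of 25 kb gave 77 of 77 and bins of 100 kb 20 of 20 with more EnPGC-1 bases, which is every bin as before. Windows of 500 bp and 2500 bp around gene ends gave 42 and 12 genes for EnPGC-1 intervals alone, and 2 and 0 for DMSO intervals alone. Apart from these counts, which follow from the filters, the cause of a move was not tested. Depth is unknown, so an interval missing from the DMSO list is not shown to be absent from the cells. No paired analysis was possible because each treatment has 1 list and the replicate samples have no values of their own.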
